A study of Mus musculus with 6 samples.

Results

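The genes of ribosome biogenesis and RNA polymerase I were followed in Tot2 cells, a myeloid progenitor line from an Irf8 knockout mouse, after retroviral transfer of IRF8 or KLF4. The set held 42 mouse genes of rRNA transcription, rRNA processing and ribosome assembly. They were found on the arrays through the RefSeq accession of each probe, with the brightest probe standing for a gene that had several. All 42 were among the 20259 genes matched, and 41 were among the 13244 genes tested, the test being limited to genes detected over background on each of the 2 arrays of some group. Utp18, a small-subunit processome component, was above background on no array, with log2 signals of -7.38 to -5.74, and was not tested.

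Ribosomes are built in the nucleolus, where RNA polymerase I transcribes the long rRNA precursor. Small nucleolar RNPs of the box C/D and box H/ACA classes guide its methylation and pseudouridylation, and large sets of assembly factors cleave, fold and export the pre-ribosomal particles. The pathway is known to be highly active in growing progenitors, and the transcription factor Myc is a known activator of many of its genes.

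The study compared 3 groups of 2 arrays each. IRF8-labelled cells had received the MSCV-IRF8FLAG retrovirus, KLF4-labelled cells MSCV-KLF4FLAG, and control cells the empty MSCV-puro vector. All groups came from the same line, so the control cells carried the Irf8 knockout as well. Cells of all groups were grown with 5.0 ng/ml GM-CSF, put under puromycin (2 µg/ml) at 48 hr, and collected at day 4. The replicate number marked the experiment, of which the design text names 2 independent ones. Because only 1 line was used, p-values measure the spread between experiments in that line.

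Signals are given as log2 of the processed intensity relative to the 75th percentile of the array, which ran from 436 to 974 intensity units over the 6 arrays. The share of probes well above background ran from 47.1% to 56.8%, and arrays of the same group correlated at r = 0.993 to 0.995 across genes, against r = 0.889 to 0.960 for arrays of different groups; genes are not independent replicates. The Irf8 probe read 0.49 and 0.64 on the control arrays, so the knockout line still gave signal at this probe. It was higher than in control cells in IRF8-labelled cells (log2 difference 2.43, limma adjusted p = 5.37e-05) and in KLF4-labelled cells (1.60, limma adjusted p = 6.06e-04). The Klf4 probe was higher in IRF8-labelled cells (5.98, limma adjusted p = 1.87e-05) but not on the KLF4-labelled arrays (0.00 ± 0.16 SE, limma adjusted p = 0.987). Directions given for the KLF4-labelled cells therefore rest on the labels. Of 11 monocyte and macrophage markers on the array, 11 were above background on each IRF8-labelled array, 10 or 11 on KLF4-labelled arrays, and 8 on each control array. Their summed signal was 631 to 736 times the 75th percentile in IRF8-labelled cells, 182 to 183 times in KLF4-labelled cells and 35.0 to 40.2 times in control cells. In both transduced groups its largest part was Lyz2, which read 8.75 and 8.30 on the IRF8-labelled and 6.44 and 6.50 on the KLF4-labelled arrays. All 11 were higher in IRF8-labelled than in control cells at a limma adjusted p under 0.05, where 25.8% of all genes tested were. In KLF4-labelled against control cells 7 were higher and Ly86 was lower (log2 -0.72), where 10.3% and 8.83% of all genes tested were. Between IRF8-labelled and KLF4-labelled cells 10 were higher in the IRF8-labelled cells and Cx3cr1 was lower (log2 -1.09), where 23.7% and 26.8% of all genes tested were. Myeloid progenitor markers summed to 682 to 829 times in IRF8-labelled cells, 1474 to 2177 times in KLF4-labelled cells and 2020 to 2662 times in control cells. Of 10 such markers, Kit was above background on no array and Cd34 only in IRF8-labelled cells, so the line lacked signal of 2 defining progenitor genes in control cells.

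In IRF8-labelled cells the pathway fell together. Of the 41 genes tested, 39 (95.1%) were lower than in control cells and 0 were higher at a limma adjusted p under 0.05, where 61.5% of all genes tested were called in either direction, 35.7% lower and 25.8% higher. The fall was at least 2-fold for 27 of them, against 15% of all genes tested. The median log2 change of the 41 genes was -1.27, against -0.13 over all genes tested, and was -1.23 in experiment 1 and -1.27 in experiment 2. Fold changes of the genes called ran from 1.32-fold to 4.17-fold lower, with SE of 0.08 to 0.23 on the log2 scale (n = 2 per group). For 40 of 41 genes, both IRF8-labelled arrays lay below both control arrays, as was the case for 46.1% of all genes tested. In bulk samples, fewer cells of a type and less RNA per cell cannot be told apart.

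**Figure D1:**
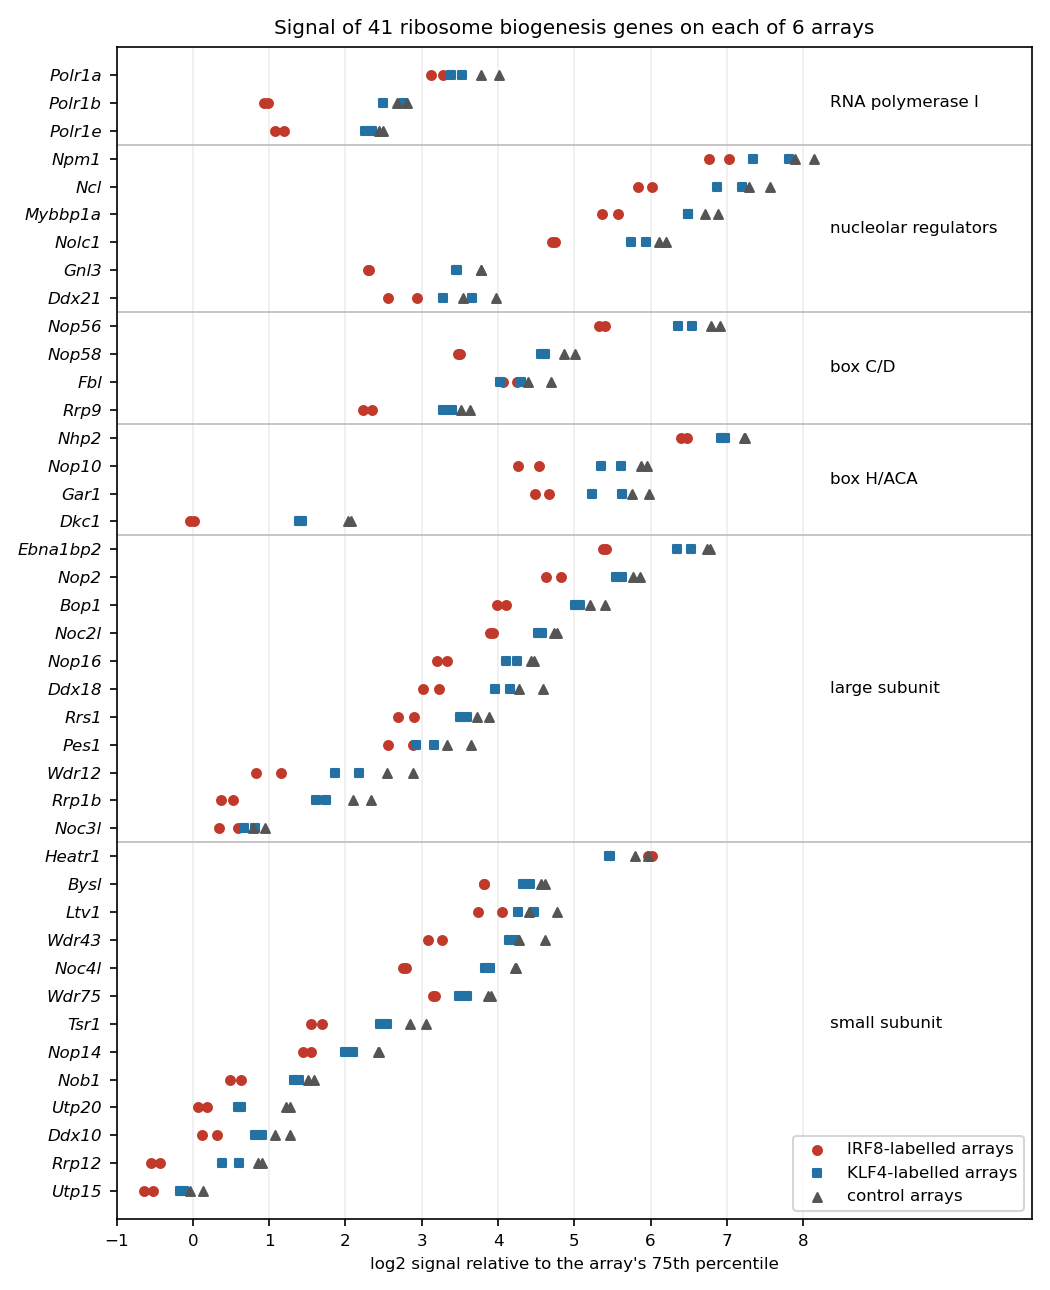
Log2 signal of each of 41 ribosome biogenesis genes (x axis, relative to the array's 75th percentile) on each array, with genes grouped by role. Red circles are IRF8-labelled arrays, blue squares KLF4-labelled arrays and grey triangles control arrays; within a gene, the IRF8-labelled arrays lie lowest for nearly all genes, and Heatr1 and Fbl depart from this. Positions of different genes on the axis are probe signals and are not comparable between genes.

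Promoter sequences were examined because the genes moved together. RefSeq windows (GRCm38.p6) from 250 bases before to 50 bases after the annotated start were held for 37 of the 42 genes, in 41 windows; Rrs1, Fbl, Rrp12, Bop1 and Npm1 were not matched. The E-box CACGTG, a palindrome that Myc with its partner Max is known to bind, was found in 8 of 41 windows (19.5%), against 7.15% of 32851 windows of the same length. The windows were also richer in G and C, with a median of 58.3% against 52.7% over all windows. The genes with an E-box were Ltv1, Mybbp1a, Nop2, Pes1, Tsr1, Utp18, Utp20 and Wdr43. The ETS-IRF composite element searched on both strands, was found in 0 of 41 windows, against 2.72% of all windows. The KLF element CCACACCC, also searched on both strands, was found in 1 window, that of Nop56, against 3.56% of all windows. A match is a run of letters and not a shown binding site. The 4 windows printed first hold an E-box, in capitals, in genes that fell in IRF8-labelled cells. Dkc1, the gene with the largest fall, and Heatr1, the only gene with a positive difference there (-0.01 with spike-in scaling), hold none. Of the other genes with an E-box, Utp20, Pes1 and Ltv1 fell by 1.12, 0.77 and 0.69 on the log2 scale, and Utp18 was not tested. Nearly all genes of the set fell, and a link between the E-box and the fall was not tested.
Mybbp1a (chr11:72441077-72441376, plus strand): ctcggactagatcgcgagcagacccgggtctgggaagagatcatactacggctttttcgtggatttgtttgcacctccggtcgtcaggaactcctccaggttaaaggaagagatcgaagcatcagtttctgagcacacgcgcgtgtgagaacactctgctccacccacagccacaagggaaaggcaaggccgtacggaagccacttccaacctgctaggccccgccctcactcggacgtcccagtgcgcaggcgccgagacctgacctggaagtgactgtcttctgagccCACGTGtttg
Tsr1 (chr11:74897830-74898129, plus strand): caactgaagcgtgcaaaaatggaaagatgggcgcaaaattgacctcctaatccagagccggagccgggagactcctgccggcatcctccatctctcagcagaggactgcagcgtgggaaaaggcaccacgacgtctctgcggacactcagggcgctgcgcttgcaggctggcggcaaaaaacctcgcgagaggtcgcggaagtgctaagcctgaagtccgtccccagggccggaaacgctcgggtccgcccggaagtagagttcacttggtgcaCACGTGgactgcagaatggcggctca
Wdr43 (chr17:71615965-71616264, plus strand): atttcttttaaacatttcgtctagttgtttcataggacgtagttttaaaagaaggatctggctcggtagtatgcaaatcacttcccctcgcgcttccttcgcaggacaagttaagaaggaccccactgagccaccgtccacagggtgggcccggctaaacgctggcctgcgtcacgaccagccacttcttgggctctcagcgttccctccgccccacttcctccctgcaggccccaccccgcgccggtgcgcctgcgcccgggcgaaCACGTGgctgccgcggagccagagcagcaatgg
Nop2 (chr6:125131633-125131932, plus strand): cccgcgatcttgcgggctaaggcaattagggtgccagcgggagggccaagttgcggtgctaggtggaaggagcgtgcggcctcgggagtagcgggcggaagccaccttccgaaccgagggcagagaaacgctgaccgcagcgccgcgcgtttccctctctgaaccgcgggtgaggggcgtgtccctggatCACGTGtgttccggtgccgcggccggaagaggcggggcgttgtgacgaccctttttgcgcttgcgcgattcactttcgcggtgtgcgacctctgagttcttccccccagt
Dkc1 (chrX:75095604-75095903, plus strand): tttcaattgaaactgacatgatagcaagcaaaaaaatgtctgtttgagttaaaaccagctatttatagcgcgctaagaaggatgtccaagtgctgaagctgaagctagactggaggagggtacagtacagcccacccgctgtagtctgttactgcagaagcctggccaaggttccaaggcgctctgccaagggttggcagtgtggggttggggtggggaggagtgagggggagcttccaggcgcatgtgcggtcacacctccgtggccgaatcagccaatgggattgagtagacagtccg
Heatr1 (chr13:12395125-12395424, plus strand): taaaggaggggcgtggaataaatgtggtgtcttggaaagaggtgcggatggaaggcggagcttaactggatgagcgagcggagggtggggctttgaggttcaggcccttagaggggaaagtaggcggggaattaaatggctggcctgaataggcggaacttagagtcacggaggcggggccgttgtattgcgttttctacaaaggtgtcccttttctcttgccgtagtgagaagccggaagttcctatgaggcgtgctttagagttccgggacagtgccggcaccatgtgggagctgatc
The E-box of Nop2 began 60 bases before the start, and those of Wdr43, Tsr1 and Mybbp1a began at bases 18, 25 and 41 counted from the start as base 1.

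The 3 RNA polymerase I subunits all fell in IRF8-labelled cells, but to unequal extents. Polr1b, which encodes the subunit that forms the catalytic centre together with Polr1a, read 0.93 and 0.99 on the IRF8-labelled arrays (probe A_51_P284823), 2.49 and 2.76 on the KLF4-labelled arrays, and 2.67 and 2.80 on the control arrays. The IRF8-labelled arrays lay well apart, while KLF4-labelled and control arrays overlapped. Polr1b was 3.42-fold lower in IRF8-labelled than in control cells (log2 -1.78 ± 0.12 SE, limma adjusted p = 2.47e-04). Polr1e, an accessory subunit, read 1.08 and 1.20 on the IRF8-labelled arrays, 2.25 and 2.35 on the KLF4-labelled arrays, and 2.44 and 2.49 on the control arrays. Its signal was likewise lowest on the IRF8-labelled arrays, with a difference from control of -1.33 ± 0.09 SE (limma adjusted p = 2.52e-04). Polr1a, the largest subunit, read 3.13 and 3.28 on the IRF8-labelled arrays, 3.38 and 3.52 on the KLF4-labelled arrays, and 3.78 and 4.02 on the control arrays. Here the KLF4-labelled arrays lay between the other groups without overlap, and the fall in IRF8-labelled cells was 1.62-fold (log2 -0.70 ± 0.13 SE, limma adjusted p = 0.00631; 0.05 was exceeded with spike-in scaling).

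All 6 nucleolar regulators fell in IRF8-labelled cells, with a median log2 change of -1.38. Ncl encodes nucleolin, an abundant RNA-binding protein of the nucleolus. It read 6.01 and 5.84 on the IRF8-labelled arrays, 7.20 and 6.87 on the KLF4-labelled arrays, and 7.56 and 7.30 on the control arrays. The IRF8-labelled arrays were lowest and no groups overlapped, and the fall against control was 2.83-fold (log2 -1.50 ± 0.16 SE, limma adjusted p = 0.00104). Npm1, the gene of the nucleolar histone chaperone nucleophosmin, read 7.03 and 6.76 on the IRF8-labelled arrays, 7.81 and 7.34 on the KLF4-labelled arrays, and 8.14 and 7.89 on the control arrays. It too was lowest in IRF8-labelled cells, 2.17-fold below control (log2 -1.12 ± 0.20 SE, limma adjusted p = 0.00623). Nolc1, a chaperone of small nucleolar RNPs, read 4.75 and 4.70 on the IRF8-labelled arrays, 5.94 and 5.75 on the KLF4-labelled arrays, and 6.21 and 6.11 on the control arrays. Its groups did not overlap, and it fell 2.70-fold against control (log2 -1.43 ± 0.10 SE, limma adjusted p = 2.81e-04). Gnl3, which encodes the nucleolar GTPase nucleostemin, read 2.31 and 2.29 on the IRF8-labelled arrays, 3.46 and 3.45 on the KLF4-labelled arrays, and 3.77 and 3.77 on the control arrays. This was among the tightest of the genes, with a fall of -1.47 ± 0.08 SE (limma adjusted p = 1.16e-04). Mybbp1a, a nucleolar partner of Myb-family proteins whose window is printed above, fell by 1.33 and the RNA helicase gene Ddx21 by 1.01 on the log2 scale.

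Among the box C/D proteins, Nop56, Nop58 and Rrp9 fell, and Fbl did not pass the test. Nop56, a core scaffold protein, read 5.41 and 5.32 on the IRF8-labelled arrays, 6.54 and 6.36 on the KLF4-labelled arrays, and 6.91 and 6.80 on the control arrays. It fell 2.81-fold against control (log2 -1.49 ± 0.10 SE, limma adjusted p = 2.57e-04), and its partner Nop58 and the U3-specific protein gene Rrp9 fell by 1.44 and 1.28 on the log2 scale. Fbl encodes fibrillarin, the methyltransferase of the same particles. It read 4.07 and 4.25 on the IRF8-labelled arrays, 4.02 and 4.31 on the KLF4-labelled arrays, and 4.39 and 4.70 on the control arrays. IRF8-labelled and KLF4-labelled arrays overlapped, both lay below control, and the difference between IRF8-labelled and control cells was -0.39 ± 0.16 SE (95% interval -0.80 to 0.03, limma adjusted p = 0.0930). With the experiment as a block its adjusted p was 0.00575. Fbl was read by 1 probe.

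All 4 box H/ACA proteins fell in IRF8-labelled cells. Dkc1, which encodes the pseudouridine synthase dyskerin that is also part of telomerase, read 0.01 and -0.03 on the IRF8-labelled arrays (probe A_52_P406828), 1.40 and 1.43 on the KLF4-labelled arrays, and 2.03 and 2.07 on the control arrays. Each group was separate, with arrays of a group close together. Dkc1 had the largest fall of the 41 genes, 4.17-fold below control (log2 -2.06 ± 0.08 SE, limma adjusted p = 5.07e-05). Nop10, a small core protein of the same particles, read 4.53 and 4.27 on the IRF8-labelled arrays, 5.61 and 5.36 on the KLF4-labelled arrays, and 5.95 and 5.87 on the control arrays. It was 2.85-fold lower in IRF8-labelled than in control cells (log2 -1.51 ± 0.14 SE, limma adjusted p = 6.49e-04). The remaining core genes Gar1 and Nhp2 fell by 1.29 and 0.79 on the log2 scale.

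All 11 large-subunit factors fell, with a median log2 change of -1.19. Rrp1b, a nucleolar protein of large-subunit assembly, read 0.53 and 0.36 on the IRF8-labelled arrays, 1.75 and 1.62 on the KLF4-labelled arrays, and 2.34 and 2.10 on the control arrays, with no overlap between groups. Its fall against control was 3.42-fold (log2 -1.77 ± 0.13 SE, limma adjusted p = 2.76e-04). Wdr12 encodes a member of the PeBoW complex with Pes1 and Bop1, which is needed for large-subunit maturation. It read 0.83 and 1.16 on the IRF8-labelled arrays, 1.86 and 2.18 on the KLF4-labelled arrays, and 2.54 and 2.88 on the control arrays. Groups did not overlap, and it fell 3.28-fold against control (log2 -1.72 ± 0.20 SE, limma adjusted p = 0.00123). Its partners Bop1 and Pes1 fell by 1.27 and 0.77 on the log2 scale. Ebna1bp2, Ddx18, Nop16, the rRNA methyltransferase gene Nop2, Rrs1 and Noc2l fell by 1.36, 1.30, 1.19, 1.09, 1.00 and 0.84. The smallest fall was that of Noc3l, 1.32-fold (log2 -0.40 ± 0.13 SE, limma adjusted p = 0.0415), and this call was lost under 10 alternatives, 5 of which left out 1 array, with adjusted p-values up to 0.252.

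Of 13 small-subunit factors tested, 12 fell in IRF8-labelled cells, with a median log2 change of -0.96. Nob1, the endonuclease that makes the mature end of the small-subunit rRNA, read 0.49 and 0.63 on the IRF8-labelled arrays, 1.32 and 1.39 on the KLF4-labelled arrays, and 1.51 and 1.58 on the control arrays. It was 1.98-fold lower in IRF8-labelled than in control cells (log2 -0.99 ± 0.09 SE, limma adjusted p = 6.84e-04), with no overlap. Bysl, a late-acting assembly factor, read 3.82 and 3.82 on the IRF8-labelled arrays, 4.32 and 4.42 on the KLF4-labelled arrays, and 4.56 and 4.62 on the control arrays. Its fall was smaller, 1.71-fold (log2 -0.77 ± 0.08 SE, limma adjusted p = 0.00108). Noc4l, Rrp12, Tsr1, Wdr43 and Utp20 fell by 1.46, 1.37, 1.33, 1.27 and 1.12 on the log2 scale, and Ddx10, Nop14, Wdr75, Ltv1 and Utp15 by 0.96, 0.94, 0.72, 0.69 and 0.63. Without control replicate 2 or IRF8-labelled replicate 1, the calls of Ltv1, Pes1 and Ddx21 were lost.

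Heatr1 departed from the others. It encodes a large repeat protein of the small-subunit processome that is known to act with Wdr43, Wdr75 and Utp15 in linking rRNA transcription to processing. It read 5.97 and 6.02 on the IRF8-labelled arrays (probe A_66_P108019, its only probe), 5.47 and 5.45 on the KLF4-labelled arrays, and 5.80 and 5.97 on the control arrays. IRF8-labelled and control arrays lay together and the KLF4-labelled arrays lay below both. The difference between IRF8-labelled and control cells was 0.11 ± 0.10 SE (95% interval -0.13 to 0.36, limma adjusted p = 0.353), and -0.01 with spike-in scaling. A test of Heatr1 against its partners within the arrays was not made.

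**Figure D2:**
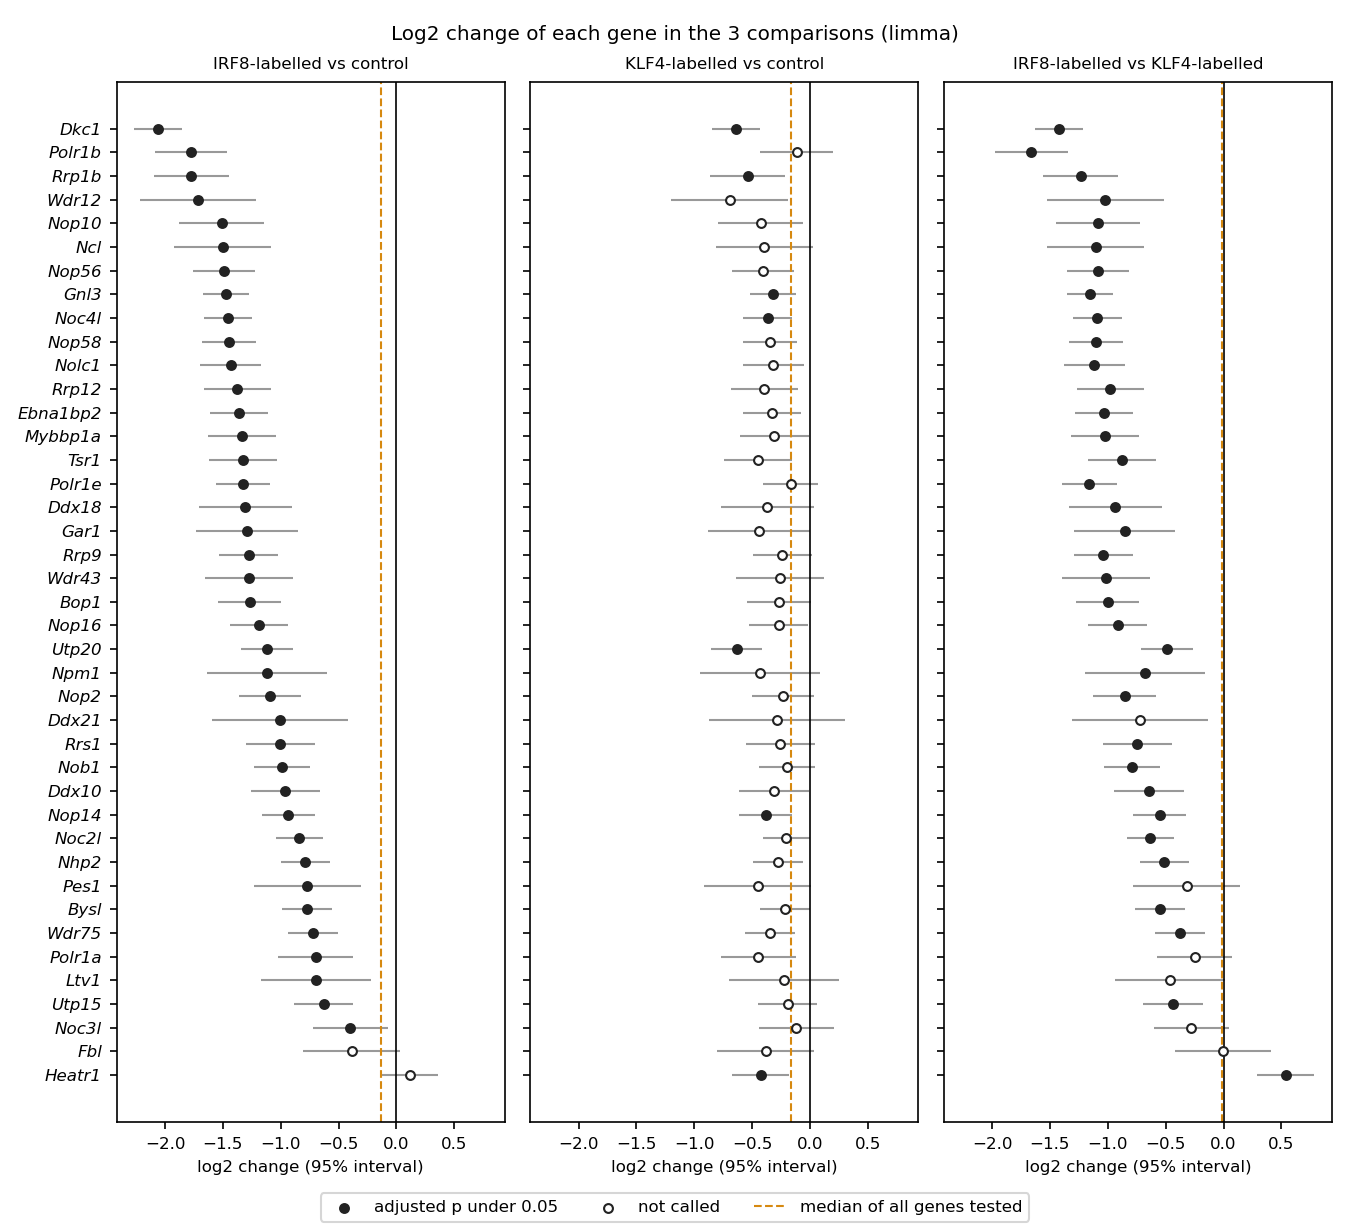
Log2 change of each of 41 genes with its 95% interval (x axis) in the 3 comparisons, ordered by the change in IRF8-labelled against control cells. Filled points have a limma adjusted p under 0.05, open points do not, and the dashed line is the median of all genes tested; 39 genes are filled and left of 0 in the IRF8-labelled against control panel, 7 in the KLF4-labelled against control panel and 34 in the direct panel.

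KLF4-labelled cells differed from control cells by much less. All 41 genes had a negative log2 difference, with a median of -0.32 against -0.16 over all genes tested, and the 2 comparisons with control share the control arrays. The share of negative differences over all genes tested was not computed. Differences were also negative for 77 of 77 cytosolic and 75 of 76 mitochondrial ribosomal protein genes, so the sign is not particular to this set. Of the 41, 7 genes (17.1%) fell and 0 rose at a limma adjusted p under 0.05, where 19.2% of all genes tested were called in either direction, 8.83% lower and 10.3% higher. Of them, 0 fell by 2-fold or more, against 0.785% of all genes tested. Both KLF4-labelled arrays lay below both control arrays for 37 genes, against 45.1% of all genes tested. The same held for 69 of 76 mitochondrial and 7 of 77 cytosolic ribosomal protein genes. With the experiment as a block, 37 genes were called lower, where 6744 of the 13244 genes tested were called in either direction. With median or spike-in scaling 0 of the 41 were, where 1457 and 886 of all genes tested were called. Leaving out any 1 of the 6 arrays left 0 to 2 genes.

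The 7 genes that fell in KLF4-labelled cells came from 4 of the 6 roles. Dkc1 was 1.56-fold lower than in control (log2 -0.64 ± 0.08 SE, limma adjusted p = 0.00776). Utp20, a large scaffold protein of small-subunit assembly, read 0.18 and 0.07 on the IRF8-labelled arrays, 0.59 and 0.63 on the KLF4-labelled arrays, and 1.22 and 1.27 on the control arrays. The KLF4-labelled arrays lay nearer to the IRF8-labelled arrays than to control, with a fall against control of -0.63 ± 0.09 SE (limma adjusted p = 0.0105). Rrp1b fell by 0.54, Heatr1 by 0.42, Nop14 by 0.38, Noc4l by 0.37 and Gnl3 by 0.32 on the log2 scale (limma adjusted p = 0.0405 to 0.0488), and each of these 5 calls was lost under 13 alternatives, among them every fit without 1 array. The calls of Dkc1 and Utp20 were lost under 4 and 6. Nop14, a small-subunit processome protein that binds Noc4l, read 1.45 and 1.55 on the IRF8-labelled arrays, 2.00 and 2.10 on the KLF4-labelled arrays, and 2.44 and 2.42 on the control arrays. Wdr12 had the largest difference, -0.69 ± 0.20 SE, with limma adjusted p = 0.0676. Polr1b and Polr1e differed by -0.11 ± 0.12 SE (95% interval -0.43 to 0.20) and -0.17 ± 0.09 SE (95% interval -0.40 to 0.07), with limma adjusted p = 0.527 and 0.247.

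Set directly against each other, IRF8-labelled cells were lower than KLF4-labelled cells for 34 of 41 genes (82.9%), where 50.6% of all genes tested were called in either direction and 26.8% lower (limma adjusted p under 0.05). For 39 genes both IRF8-labelled arrays lay below both KLF4-labelled arrays, against 39.4% of all genes tested. The fall was at least 2-fold for 17 genes, against 9.36% of all genes tested, and the median log2 difference was -0.88, against -0.01 over all genes tested. Polr1b had the largest difference, 3.17-fold lower signal in the IRF8-labelled cells (log2 -1.66 ± 0.12 SE, limma adjusted p = 5.83e-04). Dkc1, Rrp1b, Polr1e and Gnl3 followed with 2.68-fold, 2.35-fold, 2.23-fold and 2.23-fold lower signal (SE 0.08 to 0.13, limma adjusted p = 2.95e-04 to 0.00147). Heatr1 was the 1 gene called higher, by 0.54 ± 0.10 SE (limma adjusted p = 0.00818), where 23.7% of all genes tested were called higher; the call was lost with median scaling (adjusted p = 0.0846) and with spike-in scaling (0.523). With spike-in scaling 21 genes were called lower, 3 of them small-subunit factors against 11 in the setting reported.

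The calls without the block fell into 3 main patterns. In 28 genes the IRF8-labelled cells were lower than both other groups, and KLF4-labelled cells were not called different from control. Polr1b, Polr1e, Ncl, Npm1, Nolc1 and Nop56 were of this kind. In 6 genes, Dkc1, Gnl3, Utp20, Nop14, Noc4l and Rrp1b, every comparison passed the test, in the order IRF8-labelled, KLF4-labelled, control from low to high. In 5 genes, Ddx21, Ltv1, Pes1, Noc3l and Polr1a, only IRF8-labelled against control passed, and the direct differences ranged from -0.72 to -0.25 (limma adjusted p = 0.0506 to 0.202). These patterns depended on the fit, and their shares over all genes tested were not computed. A fit with the experiment as a block called 9946, 6744 and 8909 of the 13244 genes tested, in either direction. These counts are for IRF8-labelled against control, KLF4-labelled against control and the direct comparison, in that order. With the experiment as a block, 35 genes were lower in all 3 comparisons, among them Ncl, Npm1, Nolc1, Nop56, Ddx21, Ltv1, Pes1 and Polr1a, and 4 genes, Polr1b, Polr1e, Noc3l and Wdr43, were lower in IRF8-labelled cells than in both other groups without a call between KLF4-labelled and control cells. Npm1 lost its direct call (adjusted p = 0.0410) under 8 alternatives, 5 of them without 1 array, and Ddx21 gained one under 9. For Fbl the direct difference was -0.00 ± 0.16 SE (95% interval -0.42 to 0.41, limma adjusted p = 0.989).

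**Figure D3:**
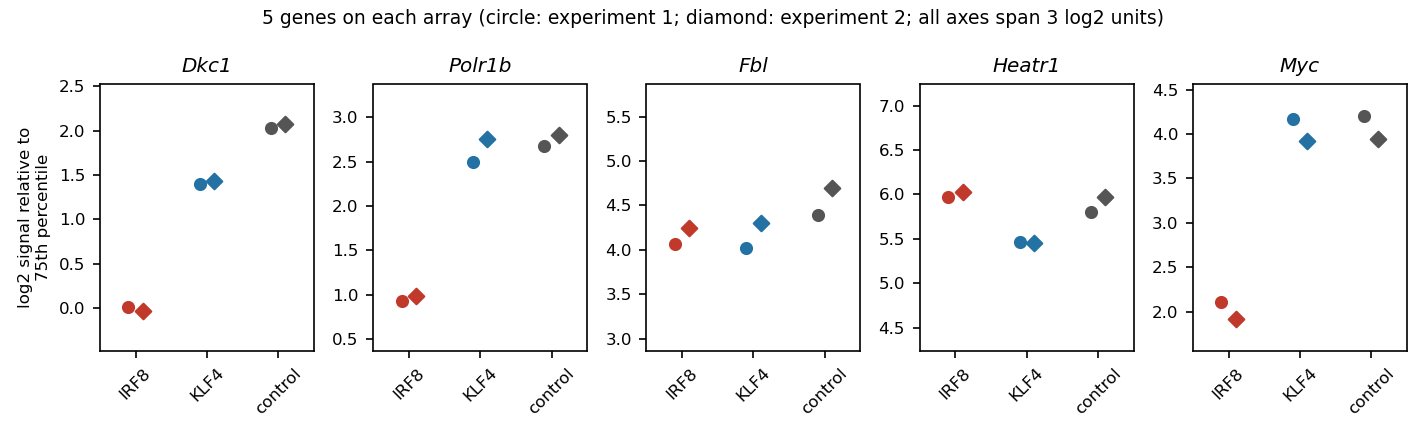
Log2 signal relative to the array's 75th percentile (y axis) of Dkc1, Polr1b, Fbl, Heatr1 and Myc on each array, for IRF8-labelled, KLF4-labelled and control cells; circles are experiment 1 and diamonds experiment 2. Dkc1 falls in steps, Polr1b and Myc are low on the IRF8-labelled arrays, Fbl lies between 4.02 and 4.70 on all arrays, and Heatr1 is lowest on the KLF4-labelled arrays.

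Separate probes of a gene changed in the same direction, though not always by the same amount. For 11 of the genes the array held 25 probes, and all probes of a gene had the same sign in each comparison. In IRF8-labelled against control cells 24 of the 25 were called lower when every probe was tested by itself. The exception was the dimmer Pes1 probe, with -0.38 ± 0.13 SE (limma adjusted p = 0.0611). In KLF4-labelled against control cells 1 of the 25 was called lower, the dimmer Ncl probe, and in the direct comparison 20 were. Probes of Ddx21 and of Npm1 differed in their calls there, and the brightest probe of each was not called when tested by itself. In 6 of the 11 genes every other probe fell by more than the brightest one that stands for the gene. For Ncl the brightest probe gave -1.50 and the other -2.11. Probe sequences were not used here, so signal from near-identical copies of a gene cannot be told apart from that of the gene.

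Other genes of ribosome assembly also fell. Of 113 assembly genes outside the 42, 91 were lower in IRF8-labelled than in control cells and 1 was higher, the kinase gene Riok3, at a limma adjusted p under 0.05. Over all genes tested 35.7% were called lower and 25.8% higher. By group, 11 of 14 other RNA polymerase I factors, 32 of 40 other small-subunit factors, 30 of 36 other large-subunit factors, 7 of 10 snoRNP assembly genes and 11 of 13 RNA exosome genes fell. Within each list the largest falls were those of Tsr2 (log2 -1.80), Rcl1 (-1.61) and Wdr46 (-1.54) among small-subunit factors, Urb1 (-1.67) and Urb2 (-1.66) among large-subunit factors, Exosc5 (-1.57) in the exosome, Naf1 (-1.47) in snoRNP assembly and Cd3eap (-1.30), a polymerase I subunit. Ubtf, another RNA polymerase I factor, had a positive difference, log2 0.81, without a call. It read 6.75 and 7.22 on the IRF8-labelled arrays, 6.44 and 6.83 on the KLF4-labelled arrays, and 5.79 and 6.55 on the control arrays. With the experiment as a block 98 of the 113 were lower and 3 higher, 1 of them an RNA polymerase I factor, where 9946 of all genes tested were called in either direction. In KLF4-labelled against control cells 16 of the 113 fell, where 8.83% of all genes tested did. With the experiment as a block 78 fell and with spike-in scaling 0, where 6744 and 886 of all genes tested were called in either direction. In the direct comparison 78 were lower in IRF8-labelled cells, where 26.8% of all genes tested were. With spike-in scaling 30 were, where 2719 of all genes tested were called in either direction.

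Cytosolic ribosomal protein genes, whose products the pathway assembles, were mostly not called in the same cells. Of 77 tested, 5 fell and 0 rose in IRF8-labelled against control cells, where 35.7% of all genes tested were called lower. The median log2 change was -0.23 and the range -0.57 to 0.05. With the experiment as a block 40 fell, where 9946 of the 13244 genes tested were called in either direction. With spike-in scaling 0 fell, where 4622 were called. In KLF4-labelled against control cells 0 of 77 were called (median -0.21), where 8.83% of all genes tested were called lower. In the direct comparison 0 were (median -0.02), where 26.8% were called lower. With the block 26 and 4 were lower in these comparisons, where 6744 and 8909 of all genes tested were called in either direction. Of mitochondrial ribosomal protein genes, 62 of 76 were lower in IRF8-labelled than in control cells and Mrpl52 was higher (log2 1.23), with a median of -0.56, and 14 were lower with spike-in scaling. Of 38 translation factors 28 fell and 0 rose (8 with spike-in scaling), led by Eif2b3 (-1.25), a subunit of the guanine exchange factor of initiation. Of 20 RNA polymerase III genes 12 fell and 0 rose (2 with spike-in scaling), among them Polr3g (-1.64).

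**Figure D4:**
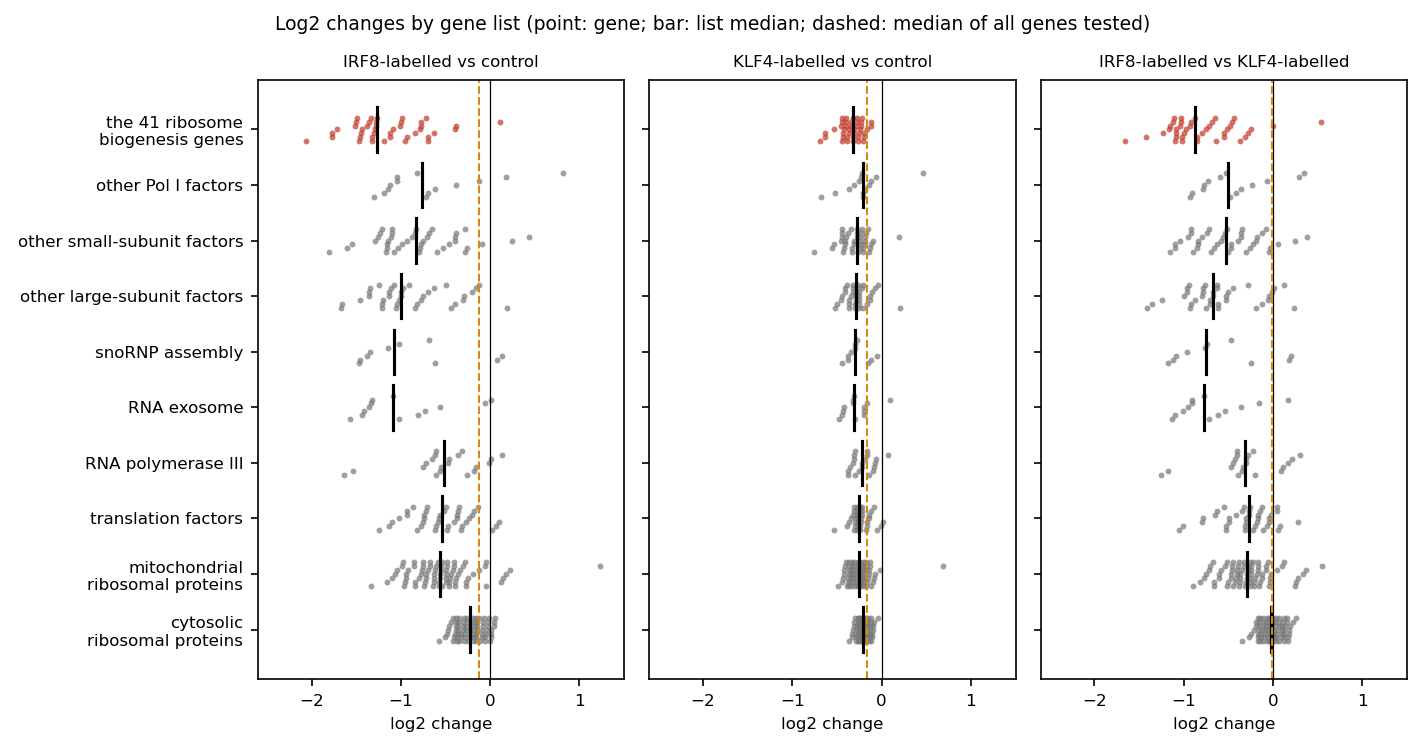
Log2 change (x axis) of single genes by list in the 3 comparisons; each point is a gene, the bar is the list's median and the dashed line the median of all genes tested. In IRF8-labelled against control cells the medians lie at -1.27 for the ribosome biogenesis genes and at -0.23 for the cytosolic ribosomal proteins, and in KLF4-labelled against control cells at -0.32 and -0.21.

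Myc, its network, proliferation genes and further markers are given as measured beside the pathway, and not all of them moved with it. Myc read 2.11 and 1.92 on the IRF8-labelled arrays, 4.17 and 3.92 on the KLF4-labelled arrays, and 4.20 and 3.95 on the control arrays. It was lower in IRF8-labelled than in control cells by 2.06 ± 0.15 SE (log2 -2.06, limma adjusted p = 2.78e-04) and differed by -0.03 ± 0.15 SE in KLF4-labelled cells (limma adjusted p = 0.905). Of 8 genes of the Myc network tested, Myc included, 4 were lower and 2 higher in IRF8-labelled than in control cells. Mxd4, which encodes an antagonist of Myc, was higher in IRF8-labelled than in control cells by 1.06, Mnt, another antagonist, by 0.58, while the antagonist gene Mxd1 fell by 0.89, Mga by 0.73 and Mlx by 0.64 on the log2 scale. All 24 proliferation genes tested were lower in IRF8-labelled than in control cells (median log2 change -1.35), 9 of 24 were lower in KLF4-labelled than in control cells (median -0.35), and 23 were lower in the direct comparison (median -0.97). The 9 became 22 with the experiment as a block, 5 with quantile normalization, 1 with normexp, 0 with median or spike-in scaling, and 0 to 2 without 1 array. The part of Myc, of proliferation and of the cell type markers in the changes of the ribosome biogenesis genes was not tested. Markers of fibroblasts, which serve as packaging cells for retrovirus, summed to 196 to 249 times the 75th percentile in IRF8-labelled cells, 71.8 to 74.0 times in KLF4-labelled cells and 40.5 to 42.1 times in control cells, with Pdgfrb and Fn1 above background on no array. Most of each sum was the signal of a single gene, Vim. It read 7.89 and 7.52 on the IRF8-labelled arrays, 6.04 and 5.97 on the KLF4-labelled arrays, and 5.20 and 5.23 on the control arrays. Of 5 fibroblast markers tested, 3 were higher in IRF8-labelled than in control cells, Vim (log2 2.49), which monocytes also express, Acta2 (1.64) and Col1a2 (0.71). Thy1 was lower (-0.77). Col1a1 had the largest fall (-1.39), which was called with the experiment as a block but not in the setting reported. It was above background on no IRF8-labelled array. In KLF4-labelled against control cells 3 were higher, Thy1 (4.43), Vim (0.79) and Acta2 (0.72), and Col1a1 differed by -0.82 without a call. Lymphoid and erythroid markers summed to 7.86 to 11.2, 5.74 to 7.41 and 6.88 to 6.92 times, with Cd3g, Ms4a1 and Hbb-bs among those above background on no array. Among genes often used as references, Gapdh differed by 0.04 ± 0.28 SE and Actb by 0.36 ± 0.34 SE between IRF8-labelled and control cells (limma adjusted p = 0.912 and 0.397).

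**Figure D5:**
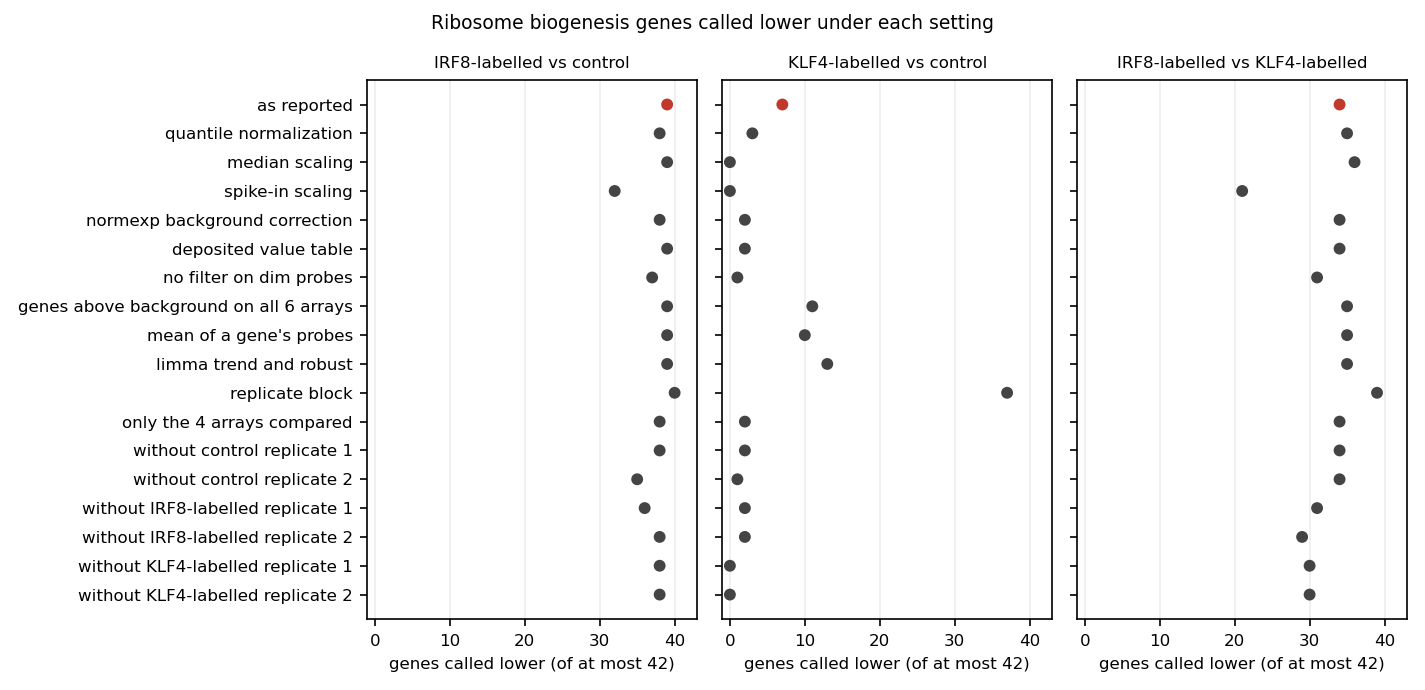
Number of ribosome biogenesis genes called lower (x axis, limma adjusted p under 0.05) in each comparison under each way of processing the arrays, listed on the y axis, with the setting reported in red. The count stays between 32 and 40 in IRF8-labelled against control cells, runs from 0 to 37 in KLF4-labelled against control cells, and lies between 21 and 39 in the direct comparison.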

How the data were processed

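Total RNA was labelled with Cy3 and hybridised to 6 single-colour Agilent mouse arrays, 2 per group. Per the file headers, the values of the deposited array files are intensity, background-subtracted by Agilent Feature Extraction 10.7.3.1 and not normalized between arrays. The deposited value table held these intensities scaled by a factor for each array, from 0.642 to 1.39. This held to within 1% for 99.6% to 99.7% of probes. Replicate spots were averaged and outlier spots left out; 26722 of 55681 probes matched a RefSeq gene. The measure was log2 processed intensity minus the 75th percentile of each array.

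All 6 arrays entered 1 limma fit with 3 groups (limma 3.58.1, R 4.3.3; 3 residual degrees of freedom), with Benjamini-Hochberg adjustment over 13244 genes, 2-sided. An exact test of 2 arrays against 2 cannot go below p = 0.333. The comparisons share arrays. The procedure was tested on simulated data.

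The genes, roles and lists were chosen with earlier results of these data known. Array values are given for genes with the 5 largest falls or rises in a comparison, if past the threshold without overlap, and for Ncl, Npm1, Fbl, Nop56, Polr1a, Polr1b, Polr1e, Dkc1, Nolc1, Bysl, Nob1 and Heatr1; of other lists, up to 4 genes with the largest changes are named. Mrpl52, Riok3, Ubtf, Lyz2, Ly86, Cx3cr1 and the fibroblast markers were singled out after their values were seen. Some genes are not reported here.

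The replicate number follows experiment and slide. Deviations from group means correlated at r = 0.282 for IRF8-labelled and control arrays, 0.321 for KLF4-labelled and control arrays and 0.391 between the transduced groups, so the numbers pair the arrays, and a fit with the experiment as a block was run. Normexp background correction (offset 50) used the median spot signal, since the files hold no mean spot signal. Alternatives also included quantile, median and spike-in scaling (8 control probes), the deposited value table, other filters and fits, and leaving out each array.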

Additional observations from a re-analysis of the deposited data

How the results depend on the processing

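In IRF8-labelled against control cells the count of 39 lower genes stayed at 32 to 40 under every alternative run on genes (35 to 38 without 1 array; 40 with the replicate block), and none of the 41 genes was called higher under any of them. Over all genes tested 8143 were called, 4622 with spike-in scaling and 6706 to 7714 without 1 array; testing every probe by itself gave 14699 probes. In KLF4-labelled against control cells the 7 lower genes became 3 with quantile normalization, 0 with median scaling, 0 with spike-in scaling, 2 with normexp, 2 with the deposited value table, 1 with no filter on dim probes, 11 with genes above background on all 6 arrays, 10 with the mean of a gene's probes, 13 with limma's trend and robust settings, 2 with only the 4 arrays compared, 3 probes with every probe by itself, and 0 to 2 without 1 array; the replicate block, which pairs arrays by experiment, gave 37. Over all genes 2539 were called, against 1457 with median scaling, 886 with spike-in scaling, 1051 with normexp, 973 with no filter, 1495 with only the 4 arrays, 6744 with the replicate block and 880 to 1495 without 1 array. In the direct comparison the 34 lower genes became 21 with spike-in scaling and 29 to 34 without 1 array, the 1 higher gene became 0 with median and 0 with spike-in scaling (1 without any 1 array), and the 6695 genes called became 2719 with spike-in scaling and 4656 to 6485 without 1 array; every probe by itself gave 11041 probes. The replicate block gave 39 lower genes there, where 8909 of all genes tested were called in either direction. The cause of these changes was not tested, except that leaving out arrays or genes changes what is tested. None of the 41 genes changed sign in a comparison where it was called. The 75th percentile left the median of all genes at -0.13, -0.16 and -0.01 in IRF8-labelled against control, KLF4-labelled against control and the direct comparison; relative to that shift the median change of the 41 genes was -1.14, -0.16 and -0.87. With 2 arrays a group and no block, intervals are wide for genes such as Ddx21 (SE 0.23). In KLF4-labelled against control cells the call of most genes depended on whether the experiment entered as a block.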
